A study of Mus musculus with 6 samples.

Results

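Small nucleolar RNAs (snoRNAs) were measured in mouse liver as 73 genes, 47 of the box C/D class and 26 of the box H/ACA class, out of 22180 genes with a single annotated symbol on the array. Members were selected on their symbol, Snord for C/D and Snora for H/ACA. For a gene with more than 1 probe set, the probe set was chosen by its mean log2 signal over all 6 arrays, the highest being kept. That mean served only to choose among probe sets, and it was not tested. The choice had to be made for 2 members, Snora19 and Snora33. Another 43 probe sets list a snoRNA together with other symbols and were not named.

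Box C/D and box H/ACA snoRNAs are short RNAs of the nucleolus, each bound by its own set of core proteins. C/D RNAs mostly guide ribose methylation of ribosomal RNA, and H/ACA RNAs mostly guide its pseudouridylation, while a few of each class are needed for cutting the ribosomal RNA precursor instead of modifying it. Most mammalian snoRNAs lie in introns of host genes, many of which encode ribosomal proteins or nucleolar factors, and are released from the spliced intron by trimming.

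The samples were livers of male Fah-deficient mice, line FAH5981SB on the C57Bl/6J background, a model of hereditary tyrosinemia type 1. All samples carried the same point mutation at the end of exon 8 of Fah, which yields a truncated and unstable enzyme of tyrosine breakdown, so both groups lack it and no mouse with intact Fah was included. The drug NTBC (nitisinone) blocks an earlier step of that pathway. The continuous group (3 arrays) received NTBC at 8 mg/l in drinking water with 3% dextrose until 12 weeks of age. In the withdrawal group (3 arrays) the drug was stopped at 11 weeks for 7 days, and these livers were also taken at 12 weeks. Both groups ate chow low in tyrosine and phenylalanine. Replicates are called biological in the labels, but the animal behind each array is not named, and p-values reflect the variation among these samples.

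Signals are log2 values of the deposited normalized intensities, and changes are withdrawal minus continuous. The medians of the 6 arrays lay between 5.21 and 5.44. Hepatocyte markers were strong: all 7 of 7 were measured, and their mean log2 signal was 11.8 on every continuous array and 11.1 to 11.3 on the withdrawal arrays. "Called" means an adjusted p under 0.05 in the limma fit over all 34472 probe sets (Benjamini-Hochberg, two-sided). By that rule 9.40% of all probe sets were called, 3.20% lower and 6.21% higher after withdrawal.

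After NTBC withdrawal, 26 of the 73 snoRNAs fell, 1 rose and 46 were not called. The share that fell, 35.6%, stands beside 3.20% of all probe sets. The H/ACA class had 15 of 26 members lower (57.7%) and 1 higher, whereas the C/D class had 11 of 47 lower (23.4%) and 0 higher. At an unadjusted p under 0.05, limma gave 22 C/D members lower and 1 higher, and 19 H/ACA members lower and 1 higher. At least a 2-fold fall in addition to the call was seen for 9 H/ACA members and 3 C/D members, beside 1.25% of all probe sets. The median log2 change was -0.86 for H/ACA members, with quartiles of -1.20 and -0.18. For C/D members it was -0.44, with quartiles of -0.73 and -0.18, and over all probe sets it was -0.08. In these whole-liver samples, fewer cells of a type and less RNA per cell cannot be told apart.

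The 3 withdrawal values lay below all 3 continuous values for 19 of 26 H/ACA members and 17 of 47 C/D members, a separation shown by 13.7% of all probe sets. The opposite separation was seen for 1 member of each class, beside 13.9% of all probe sets. In sign alone, 25 of 26 H/ACA changes and 39 of 47 C/D changes were negative, whereas 60.5% of all probe sets had a negative change. The difference between the classes was not tested, since the members were chosen with earlier results of these data known.

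**Figure D1:**
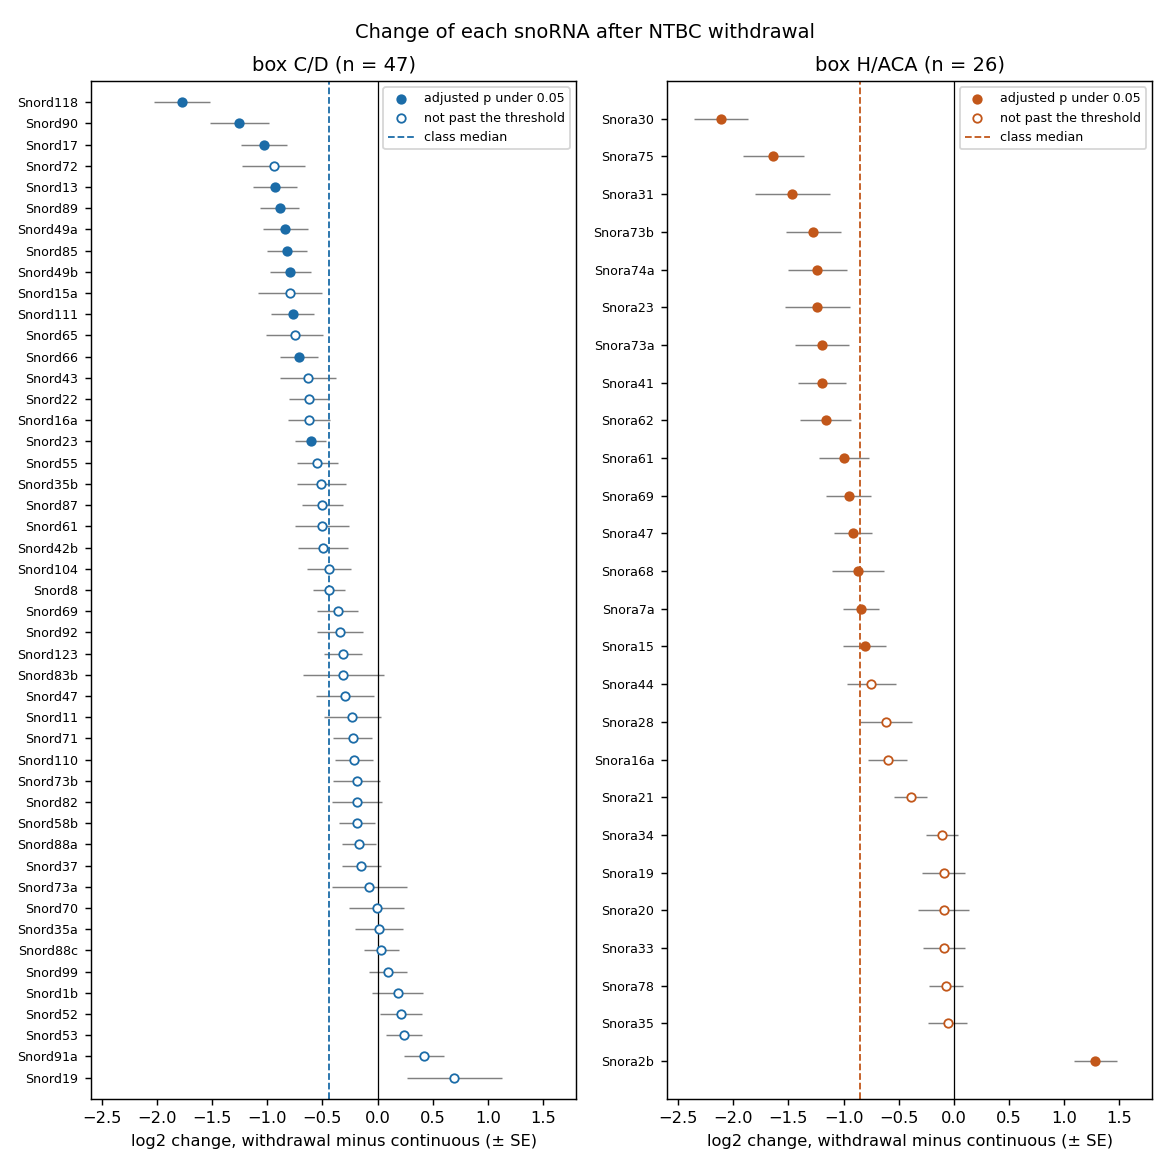
Log2 change of each snoRNA after NTBC withdrawal (x axis, withdrawal minus continuous; bars are the standard error of the limma fit), C/D members on the left and H/ACA members on the right, ordered by change. Filled points passed an adjusted p of 0.05. The dashed class medians stand at -0.44 (C/D) and -0.86 (H/ACA), and Snora2b at 1.28 is the filled point above zero.

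These counts depended on single arrays. Without withdrawal replicate 1, 5 H/ACA and 4 C/D members were lower, and without withdrawal replicate 3 the counts were 9 and 5. Leaving out continuous replicate 2 left 12 H/ACA and 3 C/D members, and leaving out withdrawal replicate 2 left 11 and 7. In the same 4 fits 1.51%, 2.37%, 2.18% and 1.95% of all probe sets were lower. Leaving out continuous replicate 1 or 3 gave 14 and 13 H/ACA members and 12 and 13 C/D members lower. In the same order, 4.59% and 2.54% of all probe sets were lower. Snora2b was higher in all 6 of these fits. When every array was centred on its median, 6 C/D and 14 H/ACA members were lower, beside 2.05% of all probe sets.

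Array by array, each member was set against its own mean over the 6 arrays. For the H/ACA class, the median of these centred values was 0.24, 0.68 and 0.24 on continuous replicates 1, 2 and 3. It was -0.39, -0.15 and -0.51 on the withdrawal arrays, in the same order. All 3 withdrawal medians of this class were thus below all 3 continuous ones. The C/D medians were 0.28, 0.41 and -0.01 on the continuous arrays and -0.23, 0.06 and -0.43 on the withdrawal arrays. Here the groups overlapped, since withdrawal replicate 2 stood above continuous replicate 3. Over all probe sets these medians lay between -0.05 and 0.04. Within the withdrawal group, replicate 2 was highest for 39 of 47 C/D and 18 of 26 H/ACA members. Within the continuous group it was highest for 27 and 17. Replicate 3 was lowest for 32 of 47 C/D members within the continuous group and for 33 within the withdrawal group. For H/ACA members replicate 3 was lowest for 10 and 14 of 26, in the same order. The part of these array-wide differences in the single changes was not tested.

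**Figure D2:**
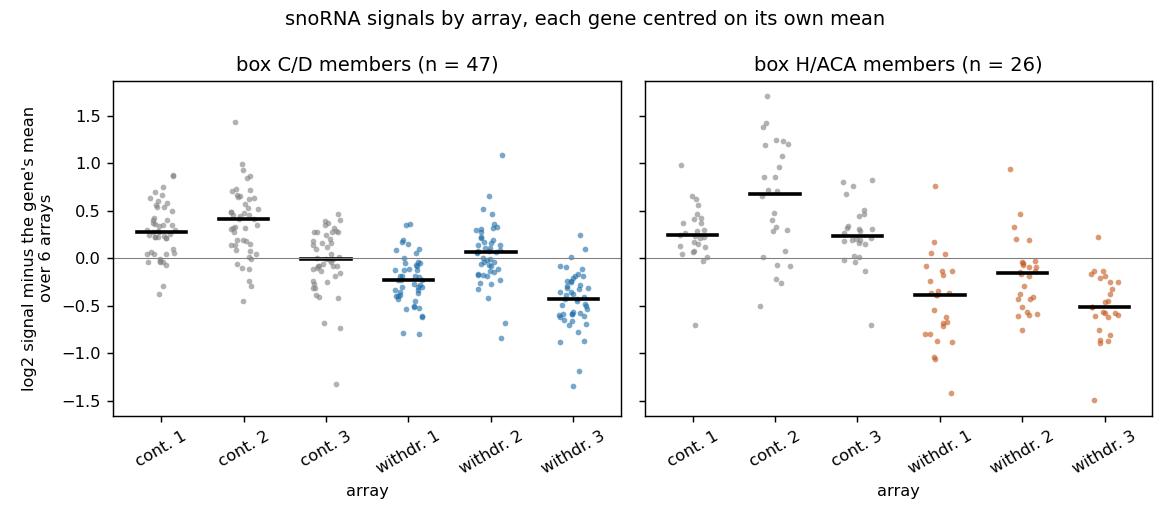
Log2 signal of each snoRNA minus its own mean over the 6 arrays (y axis) for each array (x axis), C/D on the left and H/ACA on the right, with a bar at the median of the class. The H/ACA medians were 0.24 to 0.68 on continuous arrays and -0.51 to -0.15 on withdrawal arrays, while the C/D medians overlapped between groups.

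Members that act in cutting the ribosomal RNA precursor came from both classes. Snord118 (U8), which is needed to make the RNAs of the large ribosomal subunit, had log2 signals of 8.39, 8.96 and 7.90 under continuous NTBC and 6.73, 6.85 and 6.34 after withdrawal. The groups did not overlap. The change was -1.78 ± 0.25 (SE, n = 3 per group), a 3.43-fold fall with an adjusted p of 0.00187 in limma. Among the C/D members this was the largest fall.

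Snora73a and Snora73b, the H/ACA RNAs also known as U17, act in the maturation of small-subunit ribosomal RNA. Snora73a gave 10.32, 11.23 and 10.34 under continuous NTBC and 9.23, 9.62 and 9.45 after withdrawal. Snora73b gave 10.54, 11.54 and 10.75 before and 9.42, 9.88 and 9.71 after. Both were separated, with continuous replicate 2 the highest array for each. They fell 2.29-fold (-1.20 ± 0.24, adjusted p = 0.0118) and 2.42-fold (-1.27 ± 0.25, adjusted p = 0.00997). As near-copies they may share probes, so they are not independent of each other.

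Snord13 (U13), which pairs with small-subunit ribosomal RNA and is needed for its acetylation, had signals of 11.50, 11.35 and 11.14 under continuous NTBC. After withdrawal they were 10.74, 10.02 and 10.43, all lower. The fall was 1.91-fold (-0.93 ± 0.20, adjusted p = 0.0154). Snord22 (U22), another RNA of small-subunit processing, had 12.31, 12.89 and 12.54 against 11.87, 12.09 and 11.91. Its groups were also separated, but its change of -0.62 ± 0.18 had an adjusted p of 0.054 and was not called.

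U3, annotated as Rnu3a and so outside the Snord symbols, is the C/D RNA at the centre of the processing complex for the small subunit. Its signals were 8.81, 10.16 and 9.14 under continuous NTBC and 6.96, 7.46 and 6.44 after withdrawal. It fell 5.34-fold (-2.42 ± 0.34, adjusted p = 0.00178), again with no overlap.

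**Figure D3:**
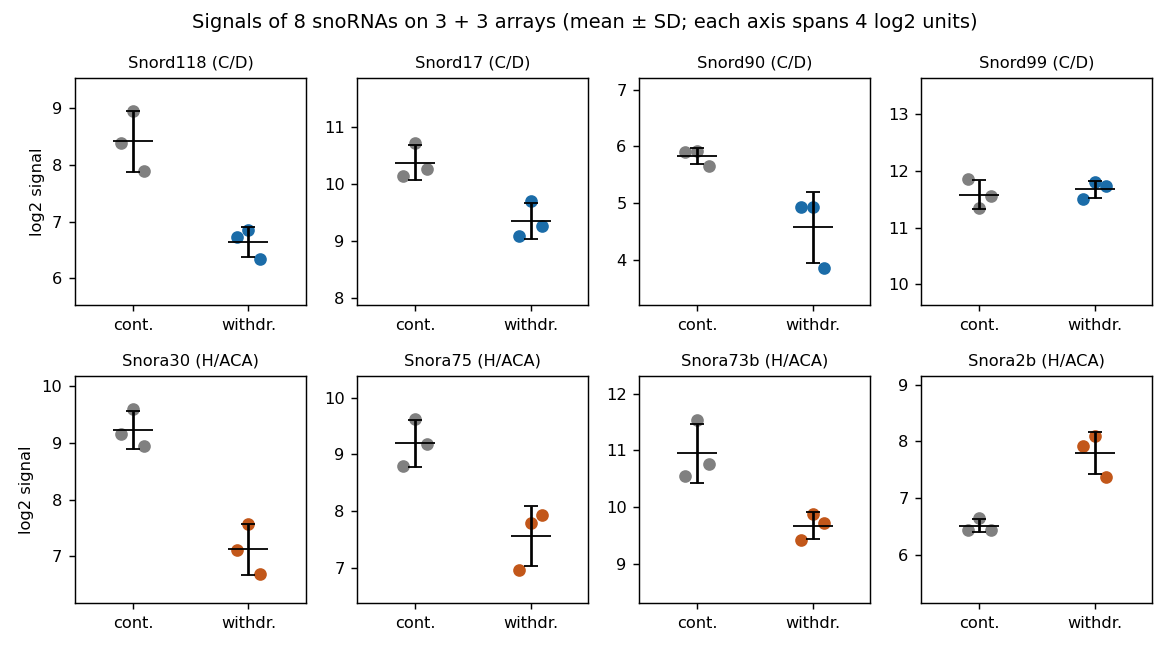
Log2 signal on each array (y axis, every panel spanning 4 log2 units) for 4 C/D and 4 H/ACA snoRNAs under continuous NTBC (grey) and after withdrawal (coloured), with mean and SD (n = 3). Snord118, Snord17, Snord90, Snora30, Snora75 and Snora73b are lower after withdrawal with no overlap, Snora2b is higher with no overlap, and Snord99 overlaps.

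Among the H/ACA members that mostly guide pseudouridylation, Snora30 fell most. Its signals were 9.16, 9.60 and 8.94 under continuous NTBC and 7.12, 7.57 and 6.68 after withdrawal. The lowest continuous array was far above the highest withdrawal array. The change was -2.11 ± 0.24, a 4.32-fold fall (limma, adjusted p = 0.000521).

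Snora75 (U23) had 8.79, 9.62 and 9.18 against 6.96, 7.79 and 7.93, and fell 3.11-fold (-1.64 ± 0.28, adjusted p = 0.00477). Snora31 had 9.75, 11.24 and 9.82 against 8.66, 9.02 and 8.73, and fell 2.76-fold (-1.47 ± 0.34, adjusted p = 0.0229). For Snora31 the spread among continuous arrays (SD 0.84) was well above that among withdrawal arrays (SD 0.19), since continuous replicate 2 was high.

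The same array stood out for Snora23, with 10.46, 11.87 and 11.00 under continuous NTBC and 9.81, 9.89 and 9.92 after withdrawal. Snora23 fell 2.36-fold (-1.24 ± 0.29, adjusted p = 0.0248). Snora74a (U19) fell to the same extent, from 9.05, 9.77 and 8.78 to 7.78, 8.39 and 7.72 (adjusted p = 0.016). Neither pair of groups overlapped.

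Snora41 had 8.70, 9.42 and 9.39 against 7.86, 7.81 and 8.25, a change of -1.20 ± 0.22 (adjusted p = 0.00715). Snora62 (E2) had 11.99, 12.33 and 12.30 against 10.58, 11.53 and 11.02, a change of -1.16 ± 0.23 (adjusted p = 0.0104). With these the H/ACA members that fell at least 2-fold are complete. The other 6 that fell were Snora61, Snora69, Snora47, Snora68, Snora7a and Snora15, with changes from -0.99 to -0.81 and adjusted p-values from 0.00826 to 0.0431. For all 6 the groups did not overlap.

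Snora2b was the member that rose. It had 6.44, 6.64 and 6.44 under continuous NTBC and 7.91, 8.09 and 7.37 after withdrawal, so that every withdrawal array was higher. The rise was 2.43-fold (1.28 ± 0.20, adjusted p = 0.00274).

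The 10 H/ACA members that were not called fell into separate kinds. Snora44 (-0.75, adjusted p = 0.0699), Snora28 (-0.61), Snora16a (-0.60, adjusted p = 0.0623) and Snora21 (-0.39) had separated groups with the lower values after withdrawal. By contrast, Snora34 had 9.90, 9.75 and 9.98 against 9.86, 9.75 and 9.69, and its 95% confidence interval for the change ran from -0.43 to 0.21. Snora19, Snora20, Snora33, Snora35 and Snora78 also had changes between -0.09 and -0.05. For Snora33 the probe set mattered. The one with the highest mean gave -0.09 (adjusted p = 0.824), while the other, at 8.49, 8.67 and 8.18 against 7.43, 7.73 and 7.32, gave -0.95 with separated groups and an adjusted p of 0.00826. The probe sets of Snora19 held identical values on every array.

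Among the C/D members that mostly guide methylation, Snord17 and Snord90 joined Snord118 in falling at least 2-fold. Snord17 had 10.14, 10.73 and 10.27 under continuous NTBC and 9.08, 9.70 and 9.27 after withdrawal, a change of -1.03 ± 0.21 (adjusted p = 0.0122). Snord90 had 5.90, 5.92 and 5.66 against 4.93, 4.94 and 3.85, a change of -1.25 ± 0.27 (adjusted p = 0.016). Both were separated, although Snord90 rested on low signals and 1 withdrawal array lay apart from the others.

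Snord89 had 9.33, 9.55 and 9.19 against 8.29, 8.77 and 8.35 (-0.89 ± 0.18, adjusted p = 0.0112). The other 6 C/D members that fell were Snord49a, Snord85, Snord49b, Snord111, Snord66 and Snord23, with changes from -0.84 to -0.61 and adjusted p-values from 0.018 to 0.0328. Their groups did not overlap. Snord49a and Snord49b are related copies in the same transcript and may share probes.

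Of the 36 C/D members that were not called, Snord72 had a change of -0.94, as large as that of called members. It had 9.78, 9.61 and 8.75 against 8.37, 8.90 and 8.04, so the lowest continuous array lay within the withdrawal range (adjusted p = 0.071). Snord35a and Snord70 changed by 0.01 and -0.01, with intervals of -0.46 to 0.49 and -0.56 to 0.54. The largest positive C/D values were 0.69 for Snord19 and 0.42 for Snord91a. Snord19 ranged from 4.80 to 6.42 under continuous NTBC and from 5.74 to 7.21 after withdrawal, which overlap (adjusted p = 0.371). The Snord91a groups were separated at low signals, with means of 4.74 ± 0.21 and 5.16 ± 0.27 (SD, n = 3), and were not called (adjusted p = 0.201).

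The members differ in annotated length, and the reference table (GRCm38.p6) gives a median gene length of 68 nucleotides for C/D and 118.5 for H/ACA. Whether the annotated lengths are those of the full RNAs was not tested. Of 4 C/D members with at least 100 nucleotides, Snord118 and Snord17 fell, Snord22 and Snord15a were not called, and the median change was -0.91. The 22 H/ACA members of that length had 13 lower, 1 higher and a median of -0.88. Below 100 nucleotides, 9 of 43 C/D members fell, with a median of -0.34, as did 2 of 4 H/ACA members, with a median of -0.48. Within the C/D class, Pearson's r between change and length was -0.43 and Spearman's rho -0.32 (n = 47). Within the H/ACA class they were -0.29 and -0.21 (n = 26). These describe genes measured on the same 6 arrays, and genes are not independent replicates. With 4 long C/D and 4 short H/ACA members, the part of length in the class difference was not tested.

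**Figure D4:**
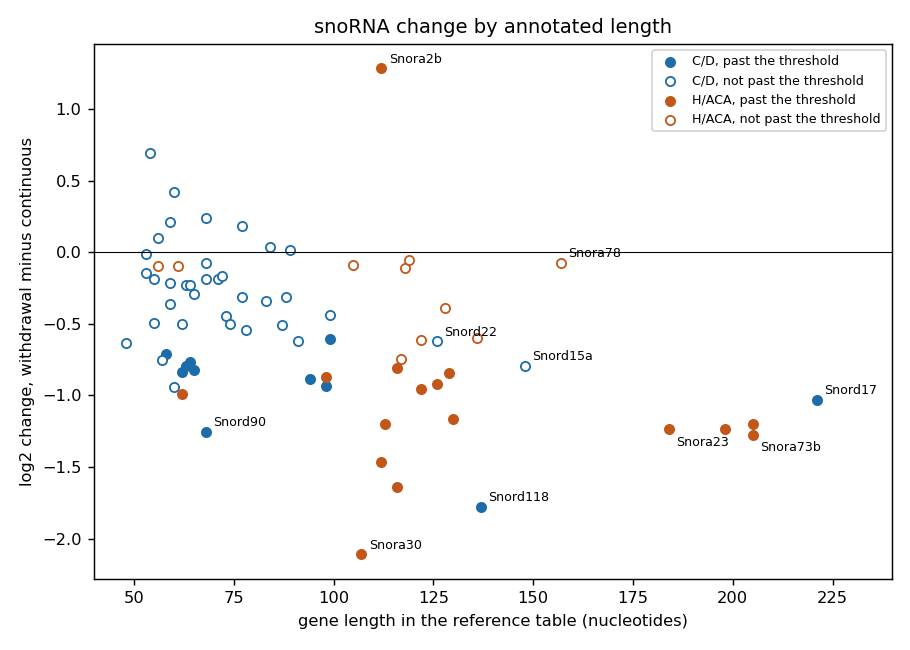
Log2 change after NTBC withdrawal (y axis) against annotated gene length in nucleotides (x axis) for 47 C/D and 26 H/ACA snoRNAs, filled where the adjusted p was under 0.05. Most C/D members are short, and the 4 C/D members of at least 100 nucleotides have changes between -1.78 and -0.62.

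Signal strength was considered because dim probe sets can show compressed changes. Among members with a mean log2 signal above 8, 13 of 19 H/ACA and 8 of 32 C/D members fell and 0 rose. In the same range 11.6% of all probe sets were lower and 20.7% higher, and the median change over them was 0.18, while the members' medians were -0.99 for H/ACA and -0.50 for C/D. Among members at or below 8, 2 of 7 H/ACA and 3 of 15 C/D members fell and 1 H/ACA member, Snora2b, rose. Of all probe sets in that range, 2.14% were lower and 4.39% higher.

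Most of the 73 members lay inside another gene of the reference table: 64 within 1 gene, 6 within several and 3 within none. The 3 without a containing gene were Snord118, Snord13 and Snord89, and all 3 fell. The first of these, U8, and U13 are known to be transcribed from their own genes. By kind of host, 4 of 6 H/ACA members in ribosomal protein genes fell (median -0.86), and 4 of 6 in long noncoding RNA genes (median -1.10). In other coding genes 7 of 13 fell and 1 rose (median -0.81). The C/D members in ribosomal protein genes had 0 of 12 called in either direction (median -0.50; at an unadjusted p under 0.05, 6 lower and 0 higher). In other coding genes 6 of 18 fell (median -0.29), and in long noncoding RNA genes 2 of 9 (median -0.44). These counts stand beside 3.20% of all probe sets lower, and 11.6% of those with a mean log2 signal above 8. Differences between kinds of host were not tested.

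A containing gene with its own probe set could be paired with 55 members, which gave 41 distinct genes. Of these 41, 10 (24.4%) were called higher, beside 6.21% of all probe sets and 20.7% of those with a mean log2 signal above 8, and their median change was 0.25. By the probe set with the highest mean, Nop56 was the 1 host called lower. Its other probe sets gave different results, described with the core proteins. A dimmer probe set of Tcp1, which holds Snora20, was also lower in limma (-0.91, adjusted p = 0.0185), while the one used gave 0.15 and was not called. In 0 of 55 pairs were both the snoRNA and its host called lower. At an unadjusted p under 0.05, limma gave 3 of 41 hosts lower and 16 higher. Nop53 (-0.51, adjusted p = 0.0707), which holds Snord23, was lower with separated groups but not called. The same held for Tpt1 (-0.44, adjusted p = 0.137), which holds Snora31. In 13 pairs the snoRNA fell and its host was not called, and in 7 the snoRNA fell while the host rose. In another 7 pairs the host rose and the snoRNA was not called, and in 1 both rose. The uncalled members were Snord11 and Snord70 in Nop58, Snord53 and Snord92 in Wdr43, Snord19 and Snord69 in Gnl3, and Snora34 in Kansl2. The change of the snoRNA was below that of its host in 49 of 55 pairs. Across pairs, Pearson's r was 0.19 and Spearman's rho 0.09, as a description over genes of the same arrays. A probe set for an intronic snoRNA reads every RNA that holds its sequence, including unspliced host RNA. Leaving out single arrays moved the number of hosts that rose to between 5 (without withdrawal replicate 1 or 2 or without continuous replicate 2) and 11.

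Rpl32, a ribosomal protein of the large subunit, rose by 0.99 ± 0.15 (adjusted p = 0.00228), while Snora7a inside it went from 8.46, 8.81 and 8.47 to 7.77, 7.87 and 7.58. Rpsa, of the small subunit, rose by 0.82 ± 0.18 while Snora62 fell. Snhg3, a noncoding host, had 6.21, 6.04 and 6.40 against 7.24, 6.99 and 6.70, a rise of 0.76 ± 0.18 (adjusted p = 0.0246), while Snora73a and Snora73b within it both fell. The remaining pairs of this kind were Snora23 in the nuclear import receptor Ipo7 (host 0.61), Snord111 in the splicing factor Sf3b3 (0.92) and Snord17 in the sorting nexin Snx5 (0.67). The second probe set of Sf3b3 gave -0.40, and the mean of both gave 0.26 with an adjusted p of 0.482. The host calls of Rpsa, Snhg3, Snx5 and Ipo7 were lost without withdrawal replicate 1 (adjusted p = 0.0903, 0.132, 0.172 and 0.146), and also without withdrawal replicate 2 or continuous replicate 2. For Rpsa, Snx5 and Ipo7 they were lost without continuous replicate 3 too, and for Snx5 and Ipo7 without withdrawal replicate 3. The Snx5 call was also lost under quantile normalization (adjusted p = 0.0654). That of Ipo7 was lost in 6 of 15 alternatives, 5 of them with an array left out.

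The falls of Snora30 and Snora41 stood beside hosts that were not called, the chromatin remodeller Srcap (-0.06 ± 0.19) and the elongation factor subunit Eef1b2 (0.00 ± 0.17). Both host values turned sign in the median-centred fit, to 0.04 and 0.10. Members of a single host also differed among themselves. Within Ncl, which encodes nucleolin (0.27 ± 0.14, not called), Snora75 changed by -1.64 and Snord82 by -0.19. Snhg12 (-0.10 ± 0.19) holds Snora61, which fell, Snora44 and Snora16a, which had separated groups without a call, and Snord99, with 11.86, 11.34 and 11.55 against 11.51, 11.80 and 11.73. The interval of Snord99 ran from -0.29 to 0.48. Kansl2, a subunit of a histone acetyltransferase complex, rose by 1.19 ± 0.16 (adjusted p = 0.00155) and holds Snora2b, which rose by 1.28, and Snora34, at -0.11.

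**Figure D5:**
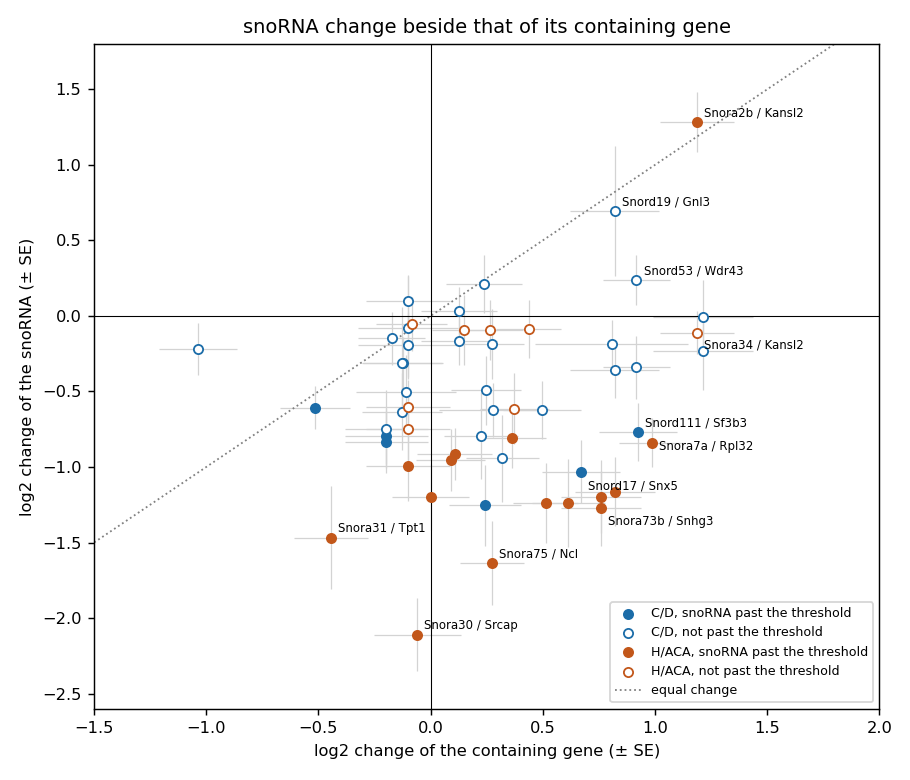
Log2 change of each snoRNA (y axis) against that of the single gene that contains it (x axis), with standard errors, for 55 pairs, filled where the snoRNA had an adjusted p under 0.05. In 49 of 55 pairs the point lies below the dotted line of equal change, and Snora2b with Kansl2 lies at the upper right.

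RNA letters were at hand for the members that overlap an annotated microRNA hairpin, Snora34 and Snora19 (RefSeq, GRCm38.p6). They are shown because neither was called, and Snora34 shares its host with Snora2b, which rose. Capitals mark the bases shared with the snoRNA, 73 of the 118 nucleotides of Snora34 in the Mir1291 hairpin (chr15:98519762-98519878, minus strand) and all 56 of Snora19 in the Mir3084-2 hairpin (chr19:60774329-60774397, minus strand).
Mir1291 with Snora34: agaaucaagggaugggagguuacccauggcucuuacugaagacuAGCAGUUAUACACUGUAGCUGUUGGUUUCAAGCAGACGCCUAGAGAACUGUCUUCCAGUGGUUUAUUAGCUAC
Mir3084-2 with Snora19: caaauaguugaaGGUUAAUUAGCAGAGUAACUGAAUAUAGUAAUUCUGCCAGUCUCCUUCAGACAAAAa

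Host promoters were read because several hosts rose together while their snoRNAs fell. RefSeq promoter windows of 250 bases before to 50 after the start were found for 40 of 50 hosts. Many hosts of snoRNAs begin with a run of C and T letters, the mark of messages for the translation machinery. An unbroken run of at least 8 such letters from 15 bases before to 30 after the start was present in 12 of 40 hosts (30%) and in 19.0% of 27025 genes. The letters CACGTG, the same on both strands and known as an E-box, were present in 9 of 40 host windows (22.5%) and in 8.09% of all genes. These are matches of letters and not sites shown to be bound, and their relation to the host changes was not tested.

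The windows of 3 hosts that rose while their snoRNAs fell are given on their own strand. CACGTG and any C or T run of at least 8 letters near the start are in capitals. Windows of Rpl32, Rpsa and Sf3b3, the other hosts of this kind, are not shown. Snx5 lies on the minus strand (chr2:144270523-144270822), Ipo7 on the plus strand (chr7:110018065-110018364) and Snhg3 on the minus strand (chr4:132353637-132353936). CACGTG begins 50 bases before the start in Snx5 and 137 before it in Ipo7, which also has a run of 15 C or T letters. Snhg3 has no CACGTG in its window and no such run in the stretch near the start.
Snx5 promoter: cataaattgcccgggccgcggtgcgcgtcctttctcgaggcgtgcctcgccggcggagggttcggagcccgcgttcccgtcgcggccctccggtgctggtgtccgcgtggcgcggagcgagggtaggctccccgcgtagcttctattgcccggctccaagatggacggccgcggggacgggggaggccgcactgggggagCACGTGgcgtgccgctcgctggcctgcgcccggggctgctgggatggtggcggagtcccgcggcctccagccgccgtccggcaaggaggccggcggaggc
Ipo7 promoter: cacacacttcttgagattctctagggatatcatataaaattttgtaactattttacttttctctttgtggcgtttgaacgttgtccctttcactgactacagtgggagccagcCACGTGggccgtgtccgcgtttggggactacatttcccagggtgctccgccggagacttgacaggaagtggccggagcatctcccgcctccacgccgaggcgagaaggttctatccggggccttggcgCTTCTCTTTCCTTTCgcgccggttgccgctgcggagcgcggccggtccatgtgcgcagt
Snhg3 promoter: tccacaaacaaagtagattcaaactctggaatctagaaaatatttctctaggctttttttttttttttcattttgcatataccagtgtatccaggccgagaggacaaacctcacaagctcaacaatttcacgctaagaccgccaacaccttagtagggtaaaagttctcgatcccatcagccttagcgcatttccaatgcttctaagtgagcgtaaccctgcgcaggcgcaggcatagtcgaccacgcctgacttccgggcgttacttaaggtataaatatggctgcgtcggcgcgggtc

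Of 7 core proteins measured, 1 rose, 1 gave conflicting results and 5 were not called. For H/ACA, the pseudouridine synthase Dkc1 (0.42 ± 0.15), its partners Gar1 (0.24 ± 0.15), Nhp2 (0.47 ± 0.15) and Nop10 (0.33 ± 0.16) were all above zero, and 0 of 4 were called. Their adjusted p-values in limma ran from 0.0897 to 0.374, and at an unadjusted p under 0.05 2 of 4 were higher and 0 lower. For C/D, Nop58 had 7.55, 6.68 and 7.50 against 8.54, 8.40 and 8.43, a rise of 1.21 ± 0.22 (adjusted p = 0.00763). Snu13 had a change of 0.48 ± 0.15 and was not called (adjusted p = 0.08). Nop56 gave opposite results by probe set, -1.04 (adjusted p = 0.00473) for the one with the highest mean, 0.88 (adjusted p = 0.00403) for the next and -0.55 (not called) for the other, so no direction is given. The methyltransferase gene Fbl was not analysed here.

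Of 18 assembly and maturation factors measured, Nolc1, a chaperone of nucleolar and Cajal body particles, rose (0.86 ± 0.20, adjusted p = 0.0245), as did Nufip1, an assembly adaptor (0.65 ± 0.16, adjusted p = 0.0268). The ribonuclease Parn, which trims the ends of H/ACA RNAs, fell (-0.64 ± 0.15, adjusted p = 0.0249). The other 15 were not called. Without withdrawal replicate 1 these 3 calls were lost (adjusted p = 0.1004, 0.132 and 0.104), as they were without withdrawal replicate 2 or continuous replicate 2. Those of Nufip1 and Parn were lost without withdrawal replicate 3 too, and that of Nufip1 without continuous replicate 3. Quantile normalization also ended the Nolc1 call (adjusted p = 0.108) and median centring the Parn call (adjusted p = 0.0901).

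Other small noncoding RNAs on the array were set beside the snoRNAs. Of 483 microRNA genes, which are mostly dim on this array, 13 were lower (2.69%) and 11 higher (2.28%), with a median change of -0.13. The small Cajal body RNAs, which guide the modification of spliceosomal RNAs and share the snoRNA proteins, had 0 of 5 called in limma, and at an unadjusted p under 0.05 2 were lower and 1 higher. Scarna6 had a change of -1.12 (adjusted p = 0.0543) and Scarna2 one of 0.60 (adjusted p = 0.0563). Among 8 other structural RNAs, U3, the ribonuclease P RNA Rpph1 (-0.86 ± 0.16, adjusted p = 0.00677) and the spliceosomal Rnu11 (-0.85 ± 0.18, adjusted p = 0.015) fell. Of these 8, limma gave 5 lower and 0 higher at an unadjusted p under 0.05, and 7 changes were negative. The transcription regulator RNA Rn7sk had a change of 0.01, with 14.02, 13.93 and 14.04 against 14.00, 14.00 and 14.02 on the withdrawal arrays. Over these 496 other small RNAs, 16 were lower (3.23%, beside 3.20% of all probe sets) and 11 higher (2.22%, beside 6.21%). Their median log2 signal was 4.06, against 9.06 for the snoRNAs, so these shares do not compare RNAs of like signal. In the fit without dim probe sets, 13 of the 119 that remained were lower, beside 7.48% of all probe sets. There 7 were higher, beside 15.8%. Leaving out withdrawal replicates 1 or 2 changed the number lower to 8 or 10, and leaving out continuous replicate 1 raised it to 33.

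Markers of liver cell types moved between the groups as well. Of the hepatocyte markers 3 of 7 fell (Cyp2e1, Cps1 and Ass1), and of those of sinusoidal endothelium 2 of 4 rose (Clec4g and Lyve1), with a mean log2 signal of 7.37 to 7.77 under continuous NTBC and 8.14 to 8.23 after withdrawal. For macrophage, cholangiocyte, stellate cell and lymphocyte lists 0 of 18 measured markers were called in limma, and at an unadjusted p under 0.05 1 was lower and 4 were higher. Of 2 neuron markers Syt1 fell (-0.88, adjusted p = 0.00411) and Snap25 was not called. No marker had a signal near zero, the neuron markers included, so a signal above zero does not show that a cell type was present. The part of these marker changes in the snoRNA changes was not tested.

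Single calls varied in how much they rested on 1 array. Of the 27 called members, 7 kept their call in every refit, namely Snora2b, Snora30, Snora41, Snora62, Snora75, Snora7a and Snord118, and 6 of these, all but Snora7a (1.79-fold), also passed the 2-fold threshold. The direction turned for 0 of 27. Among the refits, Snora73a, Snora73b, Snora47, Snord17 and Snord89 lost the call only without withdrawal replicate 1, with adjusted p-values of 0.059, 0.0512, 0.0531, 0.0671 and 0.069. Snord90 lost it only without continuous replicate 2 (adjusted p = 0.0652). For Snora69, Snora74a and Snord13, 2 arrays each ended the call, with adjusted p-values of up to 0.0696, 0.0731 and 0.0624. The other 11 lost it on leaving out any of 3 to 5 arrays, Snora31 (adjusted p of up to 0.0859) and Snora23 (up to 0.0882) among them. The highest such value was 0.177, for Snora68 without withdrawal replicate 1. Median centring also ended the calls of Snora15, Snord111, Snord23, Snord49a, Snord49b and Snord66, with adjusted p-values from 0.061 to 0.0994. Quantile normalization ended those of Snora68 (0.0522) and Snord85 (0.0608), and the lower-quartile floor that of Snora68 (0.0609).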

How the data were processed

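Liver RNA was hybridised to 6 Affymetrix whole-transcript arrays, 100 ng of total RNA each, per the labels' protocols. The authors deposited a normalized linear intensity per probe set and array. The software named in the submitters' processing notes is Transcriptome Analysis Console. Its version, how background was corrected and values normalized, and the array's genome build are not given in the sources used here. The table has no detection calls, so a low signal does not show that an RNA was absent, and 3 arrays per group limit the precision.

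The change (withdrawal minus continuous) of log2 intensity was estimated for 34472 probe sets by limma 3.58.1 under R 4.3.3, using lmFit and eBayes at their defaults with 10.2 total degrees of freedom. The code was first tested on simulated data. P-values were adjusted over all probe sets. Of these, 23521 carry 1 symbol, 1814 several and 9137 none. Tables were made in Python 3.11.15. The members, gene lists and rules were chosen with earlier results of these data known.

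Names matched the mouse gene table (GRCm38.p6) for 73 of 73 members. A host is the gene whose span holds the whole snoRNA; strand was not available there, so containment was taken on either strand. Motif letters in snoRNA genes were not analysed here, since sequences of the snoRNA genes were not among the references used.

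Named members were those called with separated groups, the 5 largest rises and falls and the 3 highest mean signals of each class, members whose probe sets disagreed in call, processing RNAs such as Snord13 and Snord118, and core proteins. Snora19, Snora20, Snora21, Snora28, Snora34, Snora35, Snora44, Snora78, Snord15a, Snord70, Snord82, Snord99, their hosts and the hosts of falling members, and the other small RNAs by name were chosen after their values were seen.

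The alternatives were quantile normalization, median centring, a filter on dim probe sets, a replicate block, array weights, eBayes with trend and robust, probe sets with 1 symbol only, averaged probe sets per gene, a floor at each array's lower quartile, a 2-fold threshold and each array left out. To see whether replicate numbers pair the arrays, deviations from the group means were correlated over all probe sets for same-numbered arrays. The correlations were 0.16, -0.125 and 0.217, so the numbers were not taken to pair the samples.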

Additional observations from a re-analysis of the deposited data

How the results depend on the processing

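Under every alternative the median changes moved by less than their spread between arrays within groups (SD 0.23 for C/D, 0.22 for H/ACA). With single arrays left out they ran from -0.53 to -0.30 for C/D and from -0.92 to -0.75 for H/ACA. Quantile normalization gave -0.48 for C/D and -1.02 for H/ACA. Only 3 arrays per group and unknown background limit single calls. Leaving out each array in turn gave 3 to 13 C/D members lower and 5 to 14 H/ACA members lower; core proteins and assembly factors 1 to 4 higher and 1 to 2 lower, host genes 5 to 11 higher, and other small RNAs 6 to 11 higher and 8 to 33 lower. Quantile normalization gave 2 hosts lower. Median centring moves the median of all probe sets from -0.08 to 0.02. It gave 6 C/D members, 14 H/ACA members, 1 core or assembly gene and 9 other small RNAs lower. Without dim probe sets, which left out Snora19, Snora35, Snord85, Snord90 and Snord91a, 6 core or assembly genes and 7 other small RNAs were higher and 2 hosts lower. Array weights gave 6 core or assembly genes higher, 2 hosts lower and 43 other small RNAs lower. Trend and robust gave 2 hosts lower. Averaging the probe sets of each gene gave 1 core or assembly gene and 0 hosts lower. The lower-quartile floor gave 5 core or assembly genes higher and 2 hosts lower. With a 2-fold threshold, which by construction can only remove calls, 3 C/D members, 9 H/ACA members, 1 core or assembly gene and 3 other small RNAs were lower, and 1 core or assembly gene and 2 hosts higher. The cause of the other differences was not tested.

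The replicate numbers were not taken to pair the arrays, but whether they do is not known. Over all probe sets, 1 of 3 replicate numbers correlated best with its own number. Over C/D members the same-numbered arrays correlated at 0.34, 0.06 and 0.64, and over H/ACA members at 0.49, -0.003 and 0.24. With the replicate number as a block, 16 C/D and 18 H/ACA members were lower, 0 and 1 higher, with the same medians of -0.44 and -0.86. In that fit 3.39% of all probe sets were lower and 6.18% higher. The block gave 9 hosts higher and 1 lower, 3 core or assembly genes higher and 2 lower, and 13 other small RNAs higher and 21 lower.

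Values close to zero turned sign. Quantile normalization gave 0.024 for Snora19, 0.060 for Snora35 and -0.10 for Snord35a. Median centring gave 0.0065 for Snora19, 0.013 for Snora33, 0.047 for Snora35, 0.090 for Snord70, 0.10 for Eef1b2 and 0.040 for Srcap. Array weights gave -0.0072 for Snord35a, 0.17 for Snord70, 0.066 for Eef1b2 and 0.052 for Srcap. With single arrays left out, Snora19 ran from -0.25 to 0.075, Snora33 from -0.22 to 0.077, Snora35 from -0.23 to 0.055, Snord1b from -0.10 to 0.39, Snord35a from -0.21 to 0.17, Snord70 from -0.22 to 0.23, Snord82 from -0.39 to 0.0083, Snord99 from -0.025 to 0.23, Snhg12 from -0.22 to 0.078, Eef1b2 from -0.10 to 0.16 and Srcap from -0.23 to 0.13.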
